A study of Mus musculus with 8 samples.

Results

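The erythroid and haem synthesis genes are 32 genes chosen by name for their known roles in red cell precursors, and 31 of them were measured, by 69 of the 45037 probe sets tested. The choice was made with earlier results of these data known. Ahsp, the alpha-globin chaperone, could not be matched to a probe set under its current or its older name and was not analysed here. The RNA came from long bones, the femur and tibia, of males at 12 days of age, with 4 arrays of Hyp mice and 4 of WT mice, and each RNA combined 2 bone samples of 1 genotype. Hyp mice carry a deletion of the 3′ part of Phex on the C57BL/6 background and are a model of X-linked hypophosphatemia, while the strain of the WT mice is labelled only as wild type. The comparison asks how gene expression differs between Hyp and WT bone. Whole bone was used, so marrow, vessels and attached tissue are in the RNA, and the labels do not say how many animals gave it. A p-value here therefore sets a difference against the variation among these RNA preparations only, which may be technical. Each value is on the log2 scale and was centred per probe set on the median of the 8 arrays, so values show differences between arrays and no level. Whether erythroid cells were abundant can therefore not be read.

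Red cells are made in the marrow from progenitors that respond to erythropoietin through its receptor, Epor. A small set of transcription factors around Gata1, Tal1, Lmo2 and Klf1 binds GATA motifs, E-boxes and CACCC-type motifs near erythroid genes and turns on globin, membrane and haem genes together. Haem is built by a chain of enzymes that begins and ends in the mitochondrion, from Alas2 to Fech, and the red cell membrane is held by a skeleton of spectrin, ankyrin and adducin that is tied to the anion exchanger Slc4a1.

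Of the 31 measured genes, 24 rose in Hyp bone and 0 fell (limma, Benjamini-Hochberg adjusted p under 0.05 over all 18193 genes). At an unadjusted p under 0.05, 25 were higher and 0 lower. Over all genes 6.54% rose and 6.32% fell. The 24 that rose did so by 0.23 to 0.49 on the log2 scale, which is 1.17-fold to 1.4-fold, with adjusted p from 0.00125 to 0.0464. The median difference of the 31 was 0.291, against 0.0246 over all genes, and the median SE of a member's difference was 0.069. The Hyp and WT arrays did not overlap, with Hyp higher, for 22 of the 31, against 10.3% of all genes, and with Hyp lower for 0 of the 31, against 8.89%. In RNA from whole bone, more cells of a type and more RNA per cell cannot be told apart. The count of 24 was 11 without WT replicate 1, 13 without Hyp replicate 3 and 15 without Hyp replicate 1.

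As a check of the labels, Phex lay at -2.99, -3.55, -3.48 and -3.65 in the Hyp arrays and between 2.95 and 3.48 in the WT arrays. Fgf23, the phosphaturic hormone made in bone, lay between 2.39 and 3.16 in Hyp and between -3.09 and -2.39 in WT. These gene means separated the genotypes in all 8 arrays, although the position of the Phex probe sets in or outside the deleted stretch was not looked up.

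Promoter sequences from RefSeq (build GRCm38.p6) were found for 24 of the 31 measured genes, in 27 windows, since some genes have more than 1 start. The 250 bases before the start are shown for 4 genes that rose: Klf1 and Alas2, which had the largest differences, and Epor and Icam4, which with Alas2 are among the 6 members that hold both a GATA and a KLF motif there. The windows are chr8:84901732-84901981, plus strand, chrX:150547167-150547416, plus strand, chr9:21963577-21963826, minus strand and chr9:21029182-21029431, plus strand, read 5′ to 3′ on the gene's strand. Capitals mark GATA motifs (AGATAA or AGATAG or TGATAA or TGATAG) and KLF motifs (CCNCNCCC), each searched on both strands.
Klf1: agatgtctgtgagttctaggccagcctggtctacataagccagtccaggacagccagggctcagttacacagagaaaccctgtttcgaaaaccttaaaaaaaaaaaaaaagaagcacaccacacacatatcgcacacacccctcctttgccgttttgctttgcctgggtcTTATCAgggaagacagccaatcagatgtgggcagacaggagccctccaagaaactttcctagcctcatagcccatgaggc
Alas2: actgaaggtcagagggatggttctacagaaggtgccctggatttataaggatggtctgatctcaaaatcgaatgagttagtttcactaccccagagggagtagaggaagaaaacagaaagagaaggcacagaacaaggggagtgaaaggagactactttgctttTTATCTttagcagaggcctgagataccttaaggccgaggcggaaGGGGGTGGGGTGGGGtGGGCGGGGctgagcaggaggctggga
Epor: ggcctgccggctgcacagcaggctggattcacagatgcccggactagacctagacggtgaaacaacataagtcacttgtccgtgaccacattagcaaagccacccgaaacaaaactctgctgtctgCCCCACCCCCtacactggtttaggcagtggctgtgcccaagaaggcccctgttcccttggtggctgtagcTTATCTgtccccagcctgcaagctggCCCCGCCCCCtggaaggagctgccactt
Icam4: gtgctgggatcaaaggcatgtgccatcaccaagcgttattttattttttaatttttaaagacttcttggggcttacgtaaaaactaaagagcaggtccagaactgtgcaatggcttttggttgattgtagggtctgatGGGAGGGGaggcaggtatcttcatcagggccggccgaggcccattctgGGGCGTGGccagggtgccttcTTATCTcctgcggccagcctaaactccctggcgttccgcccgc
The GATA letters stood in reverse orientation in each of these windows and began 80 bases before the start of Klf1, 86 before that of Alas2, 54 before that of Epor and 43 before that of Icam4. Klf1, which encodes a factor of the CACCC-binding family itself, had no KLF motif in this window, and Alas2 and Epor had 4 matches each, some of which overlap. A GATA motif was present for 15 of the 24 members with a window, and in 15 of their 27 windows, against 26.5% of the 32851 windows of all genes. A KLF motif was in 15 of the 27 windows, against 45.9% of all, and an E-box (CANNTG) in 17 of the 27, against 66.2%. The other members with both a GATA and a KLF motif were Add2, Gfi1b and Hemgn, and 8.19% of all windows held both. A match is a stretch of letters and not a shown binding site.

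Of 7 transcription factors of the erythroid program 6 rose. Klf1, the factor that activates adult beta-globin, lay at 0.14, 0.15, 0.24 and 0.18 in the Hyp arrays and at -0.40, -0.25, -0.14 and -0.45 in the WT arrays. Every Hyp array was above every WT array, and the Hyp arrays were the more tightly grouped. Klf1 rose 1.4-fold, by 0.49 ± 0.07 (SE; limma adjusted p = 0.00135) with 4 arrays in each genotype, and had means of 0.18 ± 0.05 (SD) in Hyp and -0.31 ± 0.14 in WT. Tal1, the basic helix-loop-helix partner in the GATA1 complex, lay at 0.12, 0.08, 0.18 and 0.20 in Hyp and at -0.36, -0.29, -0.08 and -0.41 in WT. The genotypes did not overlap, and WT replicate 3 was the WT array closest to Hyp. Tal1 rose by 0.43 ± 0.07 (SE; limma adjusted p = 0.00346). Lmo2, the bridging protein of the same complex, lay at 0.10, 0.13, 0.12 and 0.15 in Hyp and at -0.34, -0.20, -0.10 and -0.19 in WT. The Hyp arrays were nearly equal, while the WT arrays were all lower and more spread. Lmo2 rose by 0.33 ± 0.06 (SE; limma adjusted p = 0.00364).

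Gata1, the X-linked master regulator of the lineage, rose by 0.30 ± 0.07 (SE; limma adjusted p = 0.0143). Its WT values were -0.21, -0.21 and -0.22 in 3 arrays and -0.03 in WT replicate 3, so this array stood apart from its group. Nfe2, which binds the globin control regions and also acts in megakaryocytes, rose by 0.33 ± 0.08, and Gfi1b, a repressor needed by both lineages, by 0.35 ± 0.09. Their genotypes overlapped: WT replicate 3 lay at 0.01 for both genes, above Hyp replicate 1 (-0.01) for Nfe2 and above Hyp replicate 2 (-0.01) for Gfi1b. Nfe2 lost its call under 8 of 19 alternatives and Gfi1b under 7, among them leaving out WT replicate 1 (limma adjusted p = 0.081 and 0.0889), WT replicate 2 (0.0641 and 0.0626), WT replicate 4 (0.0671 and 0.0501), Hyp replicate 3 (0.0659 and 0.0846) or Hyp replicate 4 (0.0567 and 0.0775). Nfe2 also lost it without Hyp replicate 2 (0.0727) and Gfi1b without Hyp replicate 1 (0.077). Bcl11a, the repressor of fetal globin that is also used in B cells, was the factor that did not pass. It lay at 0.04, 0.02, -0.11 and 0.07 in Hyp and at -0.02, 0.09, -0.10 and 0.01 in WT. The arrays of the genotypes were intermixed, and the difference of 0.01 had a 95% confidence interval from -0.12 to 0.15 (limma adjusted p = 0.902). None of its 7 probe sets passed.

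Epor, through which committed progenitors receive the erythropoietin signal for survival and expansion, rose as well. It lay at 0.12, 0.04, 0.25 and 0.18 in Hyp and at -0.31, -0.21, -0.04 and -0.26 in WT, with no overlap. It rose by 0.35 ± 0.07 (SE; limma adjusted p = 0.00878), or 1.28-fold. Hyp replicate 2 and WT replicate 3 were the arrays nearest to each other. For a gene with 1 probe set and no overlap, the centring makes the lowest Hyp and the highest WT value mirror images around 0, as here.

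**Figure D1:**
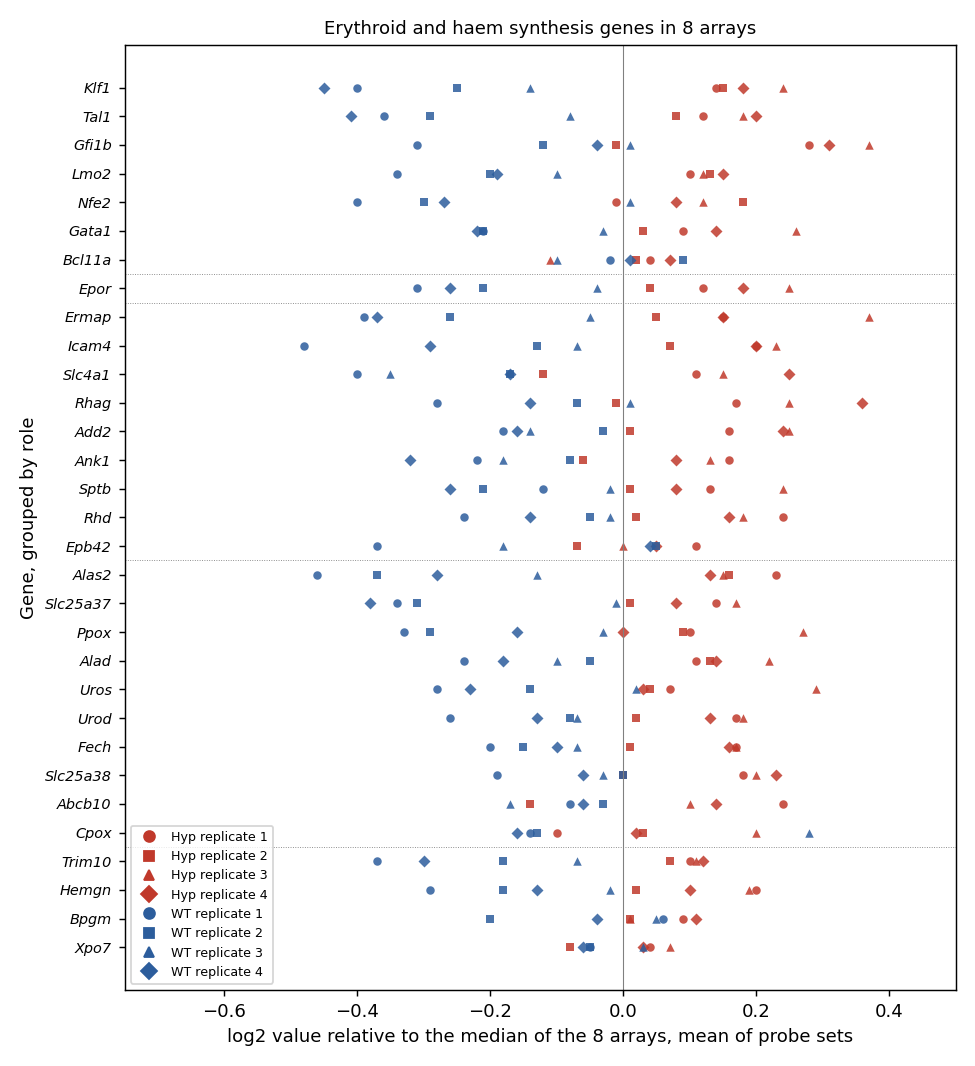
Log2 value of each of the 31 genes (rows, grouped by role) in each array, relative to the median of the 8 arrays, as the mean of the gene's probe sets, with Hyp in red, WT in blue and 1 symbol per replicate number. Hyp arrays lie to the right of WT arrays for 22 genes, and the WT array nearest to Hyp is often replicate 3 (triangles).

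Genes of the red cell membrane and its skeleton rose in 8 of 9 cases. Ermap, an erythroblast membrane protein that carries the Scianna blood group, lay at 0.15, 0.05, 0.37 and 0.15 in Hyp and at -0.39, -0.26, -0.05 and -0.37 in WT. All Hyp arrays were higher, with Hyp replicate 3 the highest of all. Ermap rose by 0.44 ± 0.09 (SE; limma adjusted p = 0.00829). Icam4, the adhesion molecule through which erythroblasts bind macrophages and integrins, rose by 0.42 ± 0.09 (limma adjusted p = 0.00982), with Hyp values from 0.07 to 0.23 and WT values from -0.48 to -0.07. Slc4a1, the anion exchanger and anchor of the membrane skeleton, rose by 0.37 ± 0.08. The skeleton genes Add2 (beta-adducin), Ank1 (ankyrin) and Sptb (beta-spectrin) rose by 0.29 ± 0.06, 0.28 ± 0.07 and 0.27 ± 0.07. Rhag and Rhd, subunits of the Rh complex, rose by 0.31 ± 0.09 and 0.26 ± 0.07, and the genotypes overlapped for Rhag. Adjusted p for these 6 genes ranged from 0.0151 (Add2) to 0.0365 (Rhag). Ank1, Sptb, Rhag and Rhd each lost their call under 8 of 19 alternatives, Slc4a1 under 4 and Add2 under 3. Without WT replicate 1 all 6 missed the threshold, with adjusted p from 0.0522 (Add2) to 0.109 (Rhag), and without Hyp replicate 3 all but Add2 did, from 0.0511 (Slc4a1) to 0.0915 (Rhag). Ank1, Sptb, Rhag and Rhd also missed it without Hyp replicate 1 (0.064 to 0.074), Hyp replicate 4 (0.0509 to 0.0896) or WT replicate 4 (0.0619 to 0.0831), and Rhag and Sptb without WT replicate 2 (0.0568 and 0.0684). Epb42, which ties the skeleton to Slc4a1, differed by 0.14 ± 0.09 and did not pass (limma adjusted p = 0.356). Its WT arrays lay at -0.37, 0.05, -0.18 and 0.04, so 2 of them were within the Hyp range of -0.07 to 0.11.

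Of 10 haem synthesis and mitochondrial carrier genes 7 rose, among them the first and the last enzyme of the chain. Alas2, the X-linked enzyme that starts haem synthesis in erythroid cells, lay at 0.23, 0.16, 0.15 and 0.13 in Hyp and at -0.46, -0.37, -0.13 and -0.28 in WT. The Hyp arrays lay within 0.1 of each other and above every WT array. Alas2 rose by 0.48 ± 0.07 (SE; limma adjusted p = 0.00125), or 1.4-fold, and had the smallest p of the 31 genes. Alad, which joins the products of the first step into porphobilinogen, lay at 0.11, 0.13, 0.22 and 0.14 in Hyp and at -0.24, -0.05, -0.10 and -0.18 in WT. The genotypes did not overlap at either of its probe sets, and both probe sets passed. Alad rose by 0.29 ± 0.06 (limma adjusted p = 0.00653).

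Of the later enzymes, Urod, Ppox and Fech passed. Urod, a decarboxylase, rose by 0.26 ± 0.06 (SE), Ppox, an oxidase of the mitochondrion, by 0.32 ± 0.08, and Fech, which inserts the iron, by 0.26 ± 0.06 (limma adjusted p = 0.0174, 0.0235 and 0.012). Ppox lost its call under 7 of 19 alternatives, Urod under 5 and Fech under 1. Ppox and Urod missed the threshold without WT replicate 1 (adjusted p = 0.0749 and 0.0529), Hyp replicate 1 (0.0534 and 0.0518) or Hyp replicate 3 (0.0615 and 0.0509), and Ppox without WT replicate 2 (0.0594). Uros, which closes the tetrapyrrole ring, lay at 0.26 ± 0.08 with adjusted p = 0.0552, just outside the threshold, and Slc25a38, the mitochondrial glycine carrier, rose by 0.23 ± 0.07 with adjusted p = 0.0464, just inside it. Both calls changed with the settings: Slc25a38 kept its call under 4 of 19 alternatives, and Uros passed under 5 of 19. Slc25a38 missed it without any 1 array other than Hyp replicate 2 (limma adjusted p = 0.0517 to 0.133), and Uros passed without WT replicate 3 (0.0168). Cpox, the oxidase between Urod and Ppox, lay at -0.10, 0.03, 0.20 and 0.02 in Hyp and at -0.14, -0.13, 0.28 and -0.16 in WT. Its highest value of all was that of WT replicate 3, and the difference of 0.07 had an interval from -0.15 to 0.30 (limma adjusted p = 0.694). Slc25a37 (mitoferrin), which brings iron into the mitochondrion, rose by 0.36 ± 0.08 (limma adjusted p = 0.016; 0.0547 without WT replicate 1). Abcb10, the mitochondrial transporter that binds it, differed by 0.17 ± 0.08 and did not pass (limma adjusted p = 0.188; 0.0325 without Hyp replicate 2).

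The remaining red cell genes split. Trim10, a protein needed late in erythroid differentiation, lay at 0.10, 0.07, 0.11 and 0.12 in Hyp and at -0.37, -0.18, -0.07 and -0.30 in WT. The Hyp arrays were close together and all above WT. Trim10 rose by 0.33 ± 0.07 (SE; limma adjusted p = 0.00803), and Hemgn, a nuclear protein of blood precursors, by 0.28 ± 0.07 (limma adjusted p = 0.0202). Hemgn missed the threshold without WT replicate 1 (0.0621), Hyp replicate 1 (0.0597) or Hyp replicate 3 (0.0573). Bpgm, which makes the metabolite that lowers the oxygen affinity of haemoglobin, lay at 0.09, 0.01, 0.01 and 0.11 in Hyp and at 0.06, -0.20, 0.05 and -0.04 in WT. Only WT replicates 2 and 4 were below the Hyp range, and the difference of 0.09 did not pass (interval -0.06 to 0.23; limma adjusted p = 0.425). Xpo7, a nuclear export receptor used when erythroblasts condense their nuclei, lay at 0.04, -0.08, 0.07 and 0.03 in Hyp and at -0.05, -0.05, 0.03 and -0.06 in WT. The genotypes were intermixed. Its difference of 0.05 had an interval from -0.06 to 0.16 (limma adjusted p = 0.566), and none of its 8 probe sets passed.

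**Figure D2:**
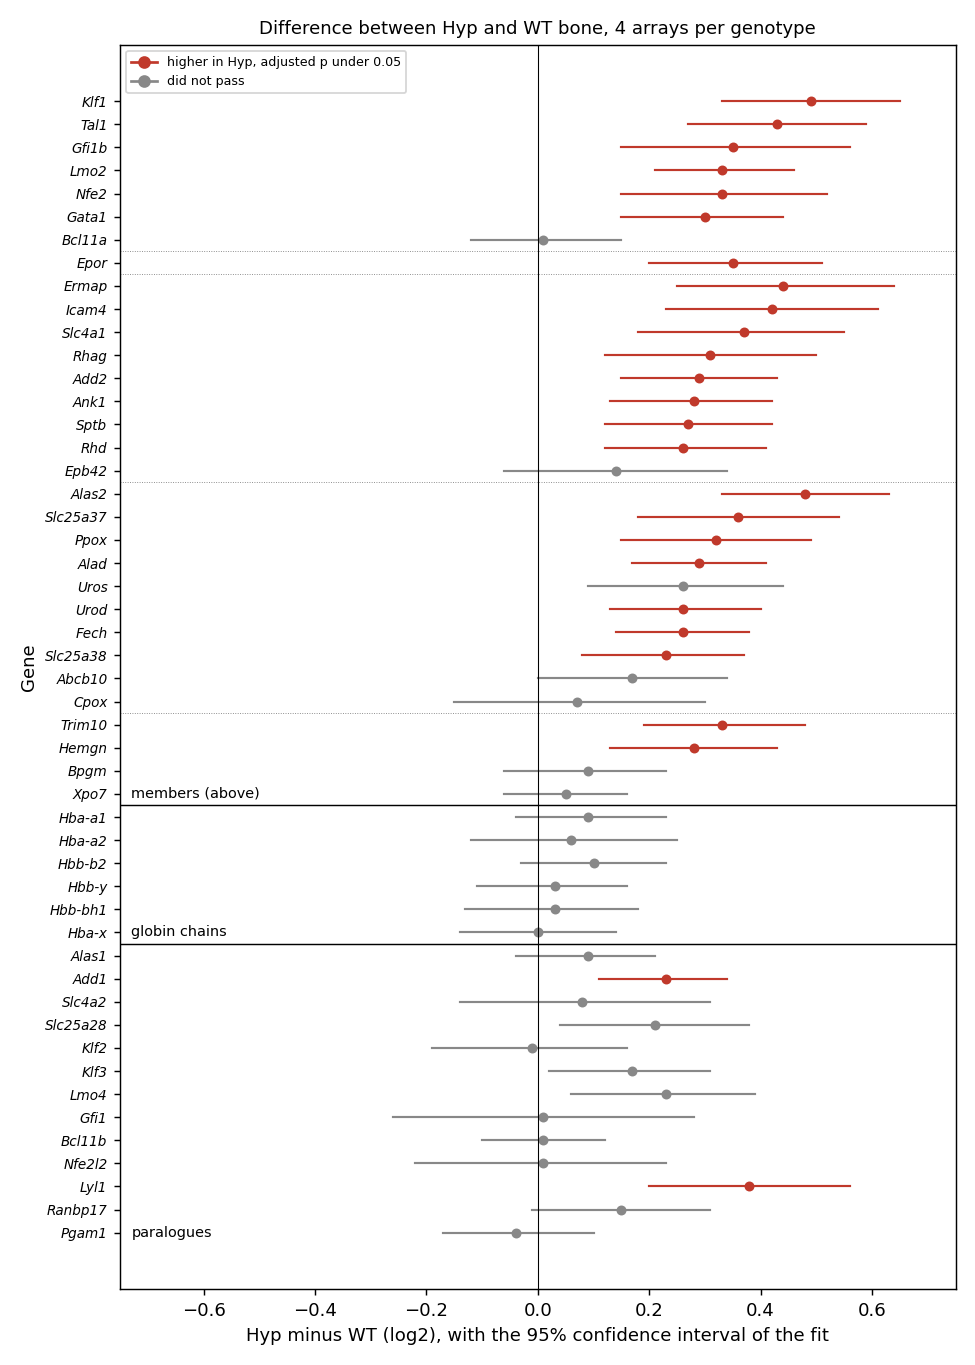
Difference between Hyp and WT (log2, points) with the 95% confidence interval of the fit (lines). Shown are the 31 genes by role, 6 globin genes and 13 of the 35 paralogues, in red where the adjusted p was under 0.05 and higher in Hyp. Of the paralogues that passed, Gata6 and Tgm2 (higher) and Klf4, Epb41l2 and Epb41l3 (lower) are not shown. Most members lie between 0.23 and 0.49. Hba-a1, Hba-a2 and Hbb-b2 lie between 0.06 and 0.10, and the embryonic globin genes between 0.00 and 0.03.

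The number of probe sets differed between genes that passed and genes that did not. All 16 members with 1 probe set passed, against 7.66% of all genes with 1 probe set. With p adjusted over the 45037 probe sets in place of the genes, 5 of these 16 missed the threshold (limma): Nfe2 at 0.0515, Gfi1b at 0.057, Rhd at 0.0572, Rhag at 0.0668 and Slc25a38 at 0.0908. Of the 15 members with several, 8 passed, against 5.41% of such genes. Of these 8, Alad passed at every probe set, Ppox at none of its 3 and the other 6 at some. Sptb had 1 probe set that rose by 0.50 ± 0.10 (SE; limma adjusted p = 0.0149 over all probe sets) and another at 0.04 ± 0.06. Ank1 rose by 0.49 ± 0.10 at 1 probe set and lay at 0.03 ± 0.12 at another, and for Slc4a1 1 of 3 passed, at 0.44 ± 0.09. Cpox also held opposite values, 0.41 ± 0.11 (limma adjusted p = 0.0487) at 1 probe set and -0.32 ± 0.15 (adjusted p = 0.249) at another, so its gene mean near 0 averages probe sets that disagree. Which transcripts each probe set reads was not examined. Taken singly, 22 of the 69 probe sets passed, all higher in Hyp, against 3.22% of all probe sets, and 0 fell, against 3.91% (41 higher and 1 lower at an unadjusted p under 0.05 in limma). A total of 7 had a negative difference, in Bcl11a, Bpgm, Cpox and Xpo7. The count of 22 was 5 without WT replicate 4, 6 without WT replicate 1 or Hyp replicate 3, 9 without Hyp replicate 4 and 10 without Hyp replicate 1, and was 33 without WT replicate 3.

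**Figure D3:**
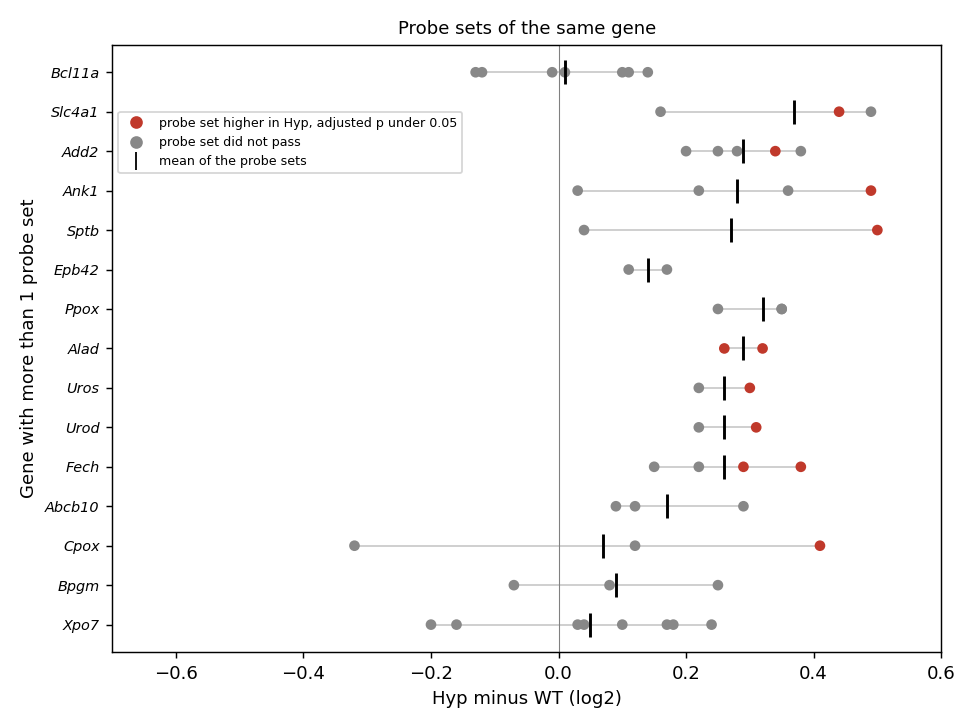
Difference between Hyp and WT (log2) at each probe set (points) of the 15 genes with more than 1 probe set, in red where the probe set passed at an adjusted p under 0.05, with the mean of the probe sets as a black bar. Probe sets of Sptb, Ank1 and Cpox lie far apart, while both of Alad lie at 0.26 and 0.32.

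The arrays were ordered in a similar way across the members. WT replicate 3 was the highest WT array for 22 of 31 genes and WT replicate 1 the lowest for 20. Among the Hyp arrays, replicate 2 was the lowest for 21 genes and replicate 3 the highest for 16. The mean over the 31 genes lay at 0.13, 0.03, 0.18 and 0.14 in Hyp and at -0.26, -0.15, -0.06 and -0.19 in WT, so the genotypes did not overlap. WT replicate 3 and Hyp replicate 2 also stood apart in skeletal muscle markers, whose mean over 12 genes was 2.11 and -1.41 in these arrays and between -0.69 and 0.32 in the others. The part of muscle RNA in the erythroid values was not tested. Without both arrays, 26 of the 31 genes rose.

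Of 36 further genes on a list of red cell membrane, iron, carbonic anhydrase, regulator and globin genes, 12 rose and 0 fell, against 6.54% and 6.32% of all genes (18 higher and 0 lower at an unadjusted p under 0.05 in limma), with a median of 0.184. Kcnn4, the calcium-activated potassium channel of red cells and of other blood cells, rose by 0.52 ± 0.05 (SE; limma adjusted p = 0.000167). Tmcc2, a transmembrane coiled-coil protein, rose by 0.49 ± 0.06, Blvrb, a biliverdin reductase of red cells, by 0.41 ± 0.07 and the coactivator Cited4 by 0.38 ± 0.06. On this list 24 genes did not pass. Among them were Kel (0.37 ± 0.11), Tfrc (0.18 ± 0.13), Car1 (0.18 ± 0.16), Tmod1 (0.12 ± 0.11) and Cd24a (0.05 ± 0.05). Their limma adjusted p ranged from 0.0595 (Kel) to 0.55 (Cd24a). No rise was detected for the globin chains measured. Of 6 globin genes with a probe set of their own, 0 passed in limma and 0 were past an unadjusted p of 0.05. The beta-globin genes Hbb-b1, Hbb-bs and Hbb-bt had no probe set of their own and were not analysed. Differences lay between 0.06 and 0.10 for Hba-a1, Hba-a2 and Hbb-b2. They lay between 0.00 and 0.03 for the embryonic chains Hbb-y, Hbb-bh1 and Hba-x. Hba-a1, an adult alpha chain, lay at -0.06, 0.11, 0.13 and 0.03 in Hyp and at -0.13, -0.05, -0.03 and 0.05 in WT, and its difference of 0.09 had an interval from -0.04 to 0.23. Hbb-b2, an adult beta chain, differed by 0.10 (interval -0.03 to 0.23). The gene means of the genotypes overlapped for both. The 2 probe sets of Hbb-b2 disagreed: 1 differed by 0.01 ± 0.08, and the other by 0.20 ± 0.08 (limma adjusted p = 0.185 over all probe sets), with Hyp at 0.04 to 0.09 above WT at -0.39 to -0.04. Hba-a1 and Hba-a2 are nearly identical, and a probe set annotated to several beta-globin genes was not used. Centred values cannot show whether globin probe sets were near the upper limit of the scanner.

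Erythropoietin signalling and progenitor genes gave 6 higher and 0 lower of 16 measured, against 6.54% and 6.32% of all genes, with a median of 0.148. At an unadjusted p under 0.05 in limma, 8 were higher and 1 lower (Myb, at -0.19 ± 0.08). The 10 that did not pass were Jak2, Stat5a, Stat5b, Socs1, Socs2, Socs3, Pim1, Bcl2l1, Kit and Myb. Kitl, the stromal ligand that supports progenitors, rose by 0.50 ± 0.08 (SE; limma adjusted p = 0.00191). Sh2b3 and Cish, which damp cytokine receptor signalling, rose by 0.28 ± 0.05 and 0.34 ± 0.07, and Cd34, of progenitors and endothelium, by 0.30 ± 0.07. Erythropoietin itself was not analysed here. Among 35 paralogues of erythroid genes, 4 rose (Add1, Gata6, Lyl1 and Tgm2) and 3 fell, against 6.54% and 6.32% of all genes. Their median was 0.0837. Whether these paralogues also act in red cell precursors was not examined. Klf4 fell by 0.71 ± 0.07 and Epb41l3 fell by 0.49 ± 0.06, while Gata6 and Tgm2 rose by 0.33 ± 0.05 and 0.33 ± 0.06.

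Pairs of a member and a relative were compared directly, as the difference between the genes in each array. The Hyp minus WT difference of Alas2 was larger by 0.40 ± 0.07 (SE) than that of Alas1, the form used in other tissues, and that of Klf1 was larger by 0.50 ± 0.09 than that of Klf2 and by 0.32 ± 0.06 than that of Klf3. Against the globins, the difference of Alas2 was larger by 0.39 ± 0.08 than that of Hba-a1 and by 0.38 ± 0.11 than that of Hbb-b2. In each of these 5 pairs the 4 Hyp arrays were above the 4 WT arrays (two-sided exact permutation p = 0.0286, the smallest possible), but none passed after adjustment over the 16 pairs compared (adjusted exact p = 0.0914). For the other pairs the genotypes overlapped, with differences from -0.10 to 0.34. Gfi1b against Gfi1 differed by 0.34 ± 0.23, Nfe2 against Nfe2l2 by 0.33 ± 0.15 and Slc4a1 against Slc4a2 by 0.28 ± 0.19 (exact permutation p = 0.2, 0.0857 and 0.2). Gata1 against Gata2 differed by 0.02 ± 0.07, Add2 against Add1 by 0.06 ± 0.06 and Tal1 against Lyl1 by 0.05 ± 0.10 (exact p = 0.743, 0.343 and 0.629). The pairs were chosen after the values were seen.

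Markers of some other cell types were higher in Hyp too, beside 6.54% of all genes that rose and 6.32% that fell. Mast cells use Gata1 and Tal1 as erythroblasts do, and their markers rose in 8 of 10 cases, with list means from 0.15 to 0.54 in Hyp and from -0.25 to -0.21 in WT. Monocyte and macrophage markers rose in 11 of 14, with means from 0.18 to 0.37 in Hyp and from -0.35 to -0.22 in WT. Endothelial markers, of cells that share Tal1 and Lmo2 with erythroblasts, rose in 13 of 14, with means from 0.11 to 0.26 in Hyp and from -0.36 to -0.17 in WT. Hyp replicate 2 was the highest array for mast cell markers, at 0.54, and the lowest Hyp array for the erythroid genes, at 0.03. For endothelial markers WT replicate 1 was the lowest array (-0.36), as for the erythroid genes, and the other WT arrays lay close together (-0.20 to -0.17). Hyp replicate 3 was the highest array of both lists. The lowest Hyp array was replicate 1 for endothelial markers (0.11) and replicate 2 for the erythroid genes. Megakaryocyte and platelet markers, of the lineage closest to the erythroid one, had 0 of 13 passing in limma (1 higher and 2 lower at an unadjusted p under 0.05), with means from -0.18 to 0.06 in Hyp and from -0.03 to 0.11 in WT. Proliferation genes rose in 8 of 21 cases, with means from 0.05 to 0.10 in Hyp and from -0.13 to -0.01 in WT. Neutrophil markers gave 1 higher of 13 (7.69%), near the share over all genes, and B lineage markers 3 lower of 13. The arrays of the genotypes overlapped for both lists. T and NK markers gave 3 higher of 10 (means 0.04 to 0.14 in Hyp, -0.13 to -0.02 in WT). Osteoclast markers gave 1 lower of 10, which is also near the share over all genes. Osteoblast markers fell in 8 of 10 cases and 1 rose, with means from -0.39 to -0.16 in Hyp and from 0.20 to 0.39 in WT. Centred values cannot show which markers were absent, and the part of these cell types in the erythroid values was not tested.

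**Figure D4:**
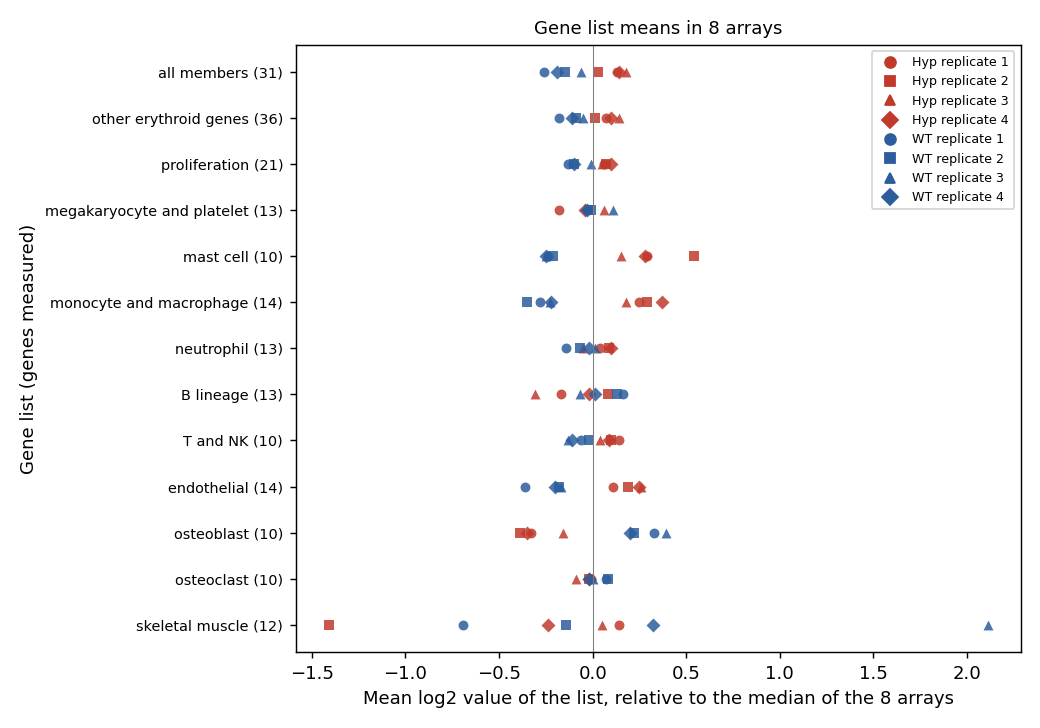
Mean log2 value of each gene list in each array, relative to the median of the 8 arrays, with the number of genes measured in brackets, Hyp in red, WT in blue and 1 symbol per replicate number. Erythroid, mast cell, macrophage, endothelial, proliferation and T and NK lists separate the genotypes with Hyp higher, and osteoblast markers with Hyp lower. Megakaryocyte, neutrophil, B lineage, osteoclast and muscle markers overlap, and WT replicate 3 lies at 2.11 for skeletal muscle.

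Both Alas2 and Gata1 lie on the X chromosome, as Phex does. Between Alas2 and Phex in the RefSeq gene order 35 tested genes were found, of which 1 rose and 5 fell in Hyp (limma), against 6.54% and 6.32% of all genes. Of all 618 tested X-linked genes, 35 rose and 59 fell. This interval was chosen after the values were seen.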

How the data were processed

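Per the submitters' processing notes the authors used RMA; its version is not given in the sources used here. Each probe set's deposited log2 values were found to be centred (their median of the 8 arrays was 0 within 5e-07), a step no label records, and the log base was taken as 2. Levels, detection and saturation cannot be read. Of 45101 probe sets, 64 controls were left out. Symbols came from the platform annotation (34945 probe sets with 1 symbol, 932 with several, 9160 with none) and were updated through RefSeq. For each array, a gene's value was the mean of its probe sets. The 18193 genes were tested together (lmFit, then eBayes, of limma 3.58.1 under R 4.3.3; two-sided), and a gene passed at a Benjamini-Hochberg adjusted p under 0.05. Differences are Hyp minus WT. The SE is that of the model, or for pairs of genes from the spread of the arrays. For arrays, their number limits the precision. The members, lists and tests were chosen with earlier results of these data known. All members are named, and values in every array are given for the 8 with the smallest p and the 4 with the largest. Up to 4 passing genes per further list are described by smallest p. Other genes of those lists are named to show what else passed or did not. Alternatives were other normalizations, array weights, probe set choices, a variance filter, a robust prior, a stricter threshold, the replicate number as a block, and leaving out arrays. The fit was tested on simulated data.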

Additional observations from a re-analysis of the deposited data

Results flagged for a closer look

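In 4 of 68 groups of 4 arrays examined, a single array lay far from the other 3, where chance gives about 1 in 20. For Gata1 in WT, replicate 3 lay at -0.03 and the others between -0.22 and -0.21. For Cpox in WT, replicate 3 lay at 0.28 and the others between -0.16 and -0.13. For Uros in Hyp, replicate 3 lay at 0.29 and the others between 0.03 and 0.07. For Fech in Hyp, replicate 2 lay at 0.01 and the others at 0.16 to 0.17.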

How the results depend on the processing

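Klf1, Tal1, Lmo2, Epor, Ermap, Icam4, Alas2, Alad and Trim10 (9 of the 24) passed under every alternative run for them, and with Gata1 and Fech 11 passed without each array in turn. With one array left out, the members that rose numbered from 11 to 24, all genes called from 1410 to 2590, other erythroid genes from 8 to 16, paralogues from 3 to 6 and member probe sets from 5 to 33. At an adjusted p under 0.01 the counts were 9 members, 1025 genes, 6 other erythroid genes and 2 paralogues. No member fell under any alternative. Of the normalizations, cyclic loess gave 18 members. Without both WT replicate 3 and Hyp replicate 2, 26 members rose and Tal1 against Lyl1 differed by 0.16. With the replicate number as a block, 22 members rose (2078 genes called, 12 other erythroid genes, 5 paralogues, 23 member probe sets). Ank1, Rhd and Slc25a38 then missed the threshold and Uros passed. Deviations of same-numbered arrays correlated at -0.0101, 0.0612, 0.18 and 0.0796 over genes, and those of differently numbered arrays at -0.201 to 0.222. Whether same-numbered arrays were handled together cannot be told from these values. Differences near 0 changed sign: Bcl11a to -0.00079 with cyclic loess, -0.03 without shared-probe suffixes (28 members tested) and -0.02 without both WT replicate 3 and Hyp replicate 2, Bcl11a against Bcl11b to -0.03 without both, and Cpox to -0.32 when the most variable probe set stood for the gene, each not past the threshold. With one array left out, Bcl11a ranged from -0.02 to 0.05, Bcl11a against Bcl11b from -0.03 to 0.05, Gata1 against Gata2 from -0.04 to 0.06 and Tal1 against Lyl1 from -0.00043 to 0.14. The cause of these changes was not tested.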
